A study of Homo sapiens with 6 samples.

Results

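Insulin-like growth factors (IGFs) are secreted ligands that reach cells bound to a family of carrier proteins, the IGF binding proteins. The ligands IGF1 and IGF2 act through the receptor tyrosine kinase IGF1R and its close relative INSR, the insulin receptor, which recruit adaptors such as IRS1 and IRS2 to start phosphoinositide 3-kinase signalling. IGF2R, the cation-independent mannose 6-phosphate receptor, has no kinase and carries IGF2 and lysosomal enzymes into the endosome. The IGF2BP proteins are named for IGF2 but are cytoplasmic RNA-binding proteins of the fetal type that are often found again in tumours.

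The transcripts described here are 10 genes of this system, taken by symbol from a count table of 26490 genes: the ligand IGF2, the receptors INSR, IGF1R and IGF2R, the binding proteins IGFBP2, IGFBP3, IGFBP4 and IGFBP6, and the RNA-binding proteins IGF2BP1 and IGF2BP3. All 10 were in the table, all 10 had reads in every library, and all 10 passed the expression filter, as did 13832 genes in total. RNA-seq was made from SW403, an established human colon adenocarcinoma line, in 3 control libraries and 3 libraries of cells with IRS2 knocked down. The control genotype is given as WT, with letters NS whose meaning is not stated. The other libraries are titled knockdown, while their descriptions carry the letters IRS2KO, and the word knockdown is used here. Both groups were untreated and were harvested 24 h after seeding in serum-containing DMEM. How IRS2 was lowered, and whether each group is 1 line or several, is not given in the sources used here, so p-values measure the spread between these cultures only.

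Control libraries held 11816973 to 12585013 counts and knockdown libraries 14329348 to 18114656, so depth and group cannot be told apart. IRS2 itself lay between 32.2 and 34.8 CPM (counts scaled to a library total of 1000000) in control and between 11.9 and 13.0 CPM in knockdown, with a log2 fold change of -1.39 ± 0.07 (SE). Of 12 colon epithelial markers, 9 had a read and 6 passed the filter. CDX2, an intestinal transcription factor, lay between 75.5 and 85.1 CPM over the 6 libraries. It was higher in knockdown (log2 fold change 0.14, edgeR adjusted p 0.0148). KRT20, CEACAM5 and CDX1 had no read. The E-cadherin gene CDH1 had 0 to 5 counts per library, CDH17 1 to 11 and LGALS4 0 to 3. The summed epithelial markers lay between 2537 and 2637 CPM in control and between 2364 and 2456 CPM in knockdown. Most of that sum came from the keratin genes KRT8 and KRT18, with means of 1106 and 1131 CPM in control. Of the 12 markers, the keratin gene KRT19 and the adhesion gene EPCAM were lower in knockdown, with log2 fold changes of -0.47 and -0.21 (edgeR adjusted p 4.35e-08 and 0.00581). The part of this difference in the results that follow was not tested. The 8 leukocyte and 6 endothelial markers summed to at most 3.81 and 1.11 CPM in any library. The 9 fibroblast and stromal markers summed to 31.8 CPM in control replicate 1, against 15.0 and 12.2 CPM in the other control libraries and 8.50 to 11.0 CPM in knockdown. The type I collagen gene COL1A2 had 86 counts in control replicate 1 and 1 to 11 elsewhere. Values without that library are therefore given for the members that changed.

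Transcripts of IGFBP3, IGFBP4 and IGFBP6 were lower in the IRS2 knockdown, while IGFBP2, INSR and IGF1R showed no change past the threshold. With so few genes this is not read as a result about the binding proteins as a group. Their transcripts are shorter than those of the receptors, and fold changes moved with transcript length, as given below. Of the 10 genes, 5 were called by the quasi-likelihood test of edgeR (adjusted p under 0.05): IGF2R and IGF2BP3 rose, and IGFBP3, IGFBP4 and IGFBP6 fell. Among all tested genes 38.5% passed, 19.3% higher and 19.2% lower, so 5 of 10 is close to the background. The log2 fold changes ran from -0.55 for IGFBP6 to 0.37 for IGF2BP3, with a median of 0.07, against a median of -0.00 over all tested genes. Control and knockdown CPM ranges were separate for 4 of the 10, namely IGFBP3, IGFBP4, IGFBP6 and IGF2BP3, against 48.4% of all tested genes. These are bulk libraries, in which fewer cells making a transcript and less of it per cell cannot be told apart.

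**Figure D1:**
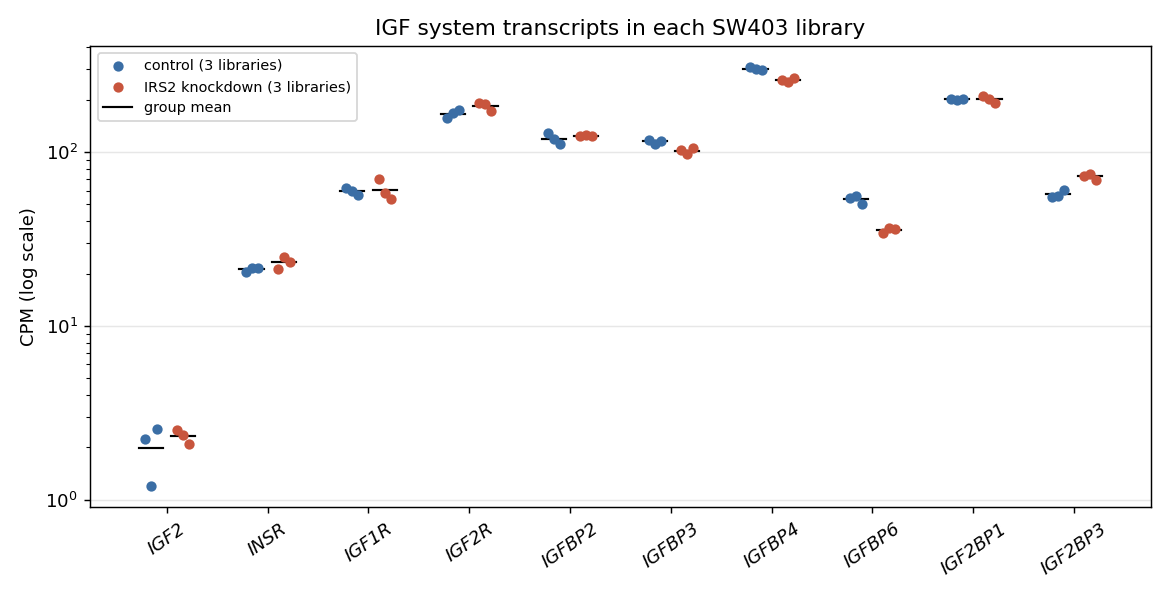
Level of the 10 genes in each library, as CPM on a log axis. Points are single libraries (3 control, 3 IRS2 knockdown) and black lines are group means; the groups separate for IGFBP3, IGFBP4, IGFBP6 and IGF2BP3, and IGF2 lies at or below 2.54 CPM in every library.

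The start regions of the most changed transcripts are shown so that the genes can be compared. RefSeq windows on GRCh38.p14, from 250 bases before to 50 bases after the annotated start, were found for 8 of the 10 genes (not for IGF2 or IGF2BP1). The E-box CACGTG and the TATA box TATAAA are in capitals, both searched on both strands. The following windows belong to the rising IGF2R (chr6:159968832-159969131, plus strand) and IGF2BP3 (chr7:23470442-23470741, minus strand) and to the falling IGFBP4 (chr17:40443200-40443499, plus strand) and IGFBP6 (chr12:53097417-53097716, plus strand).
IGF2R: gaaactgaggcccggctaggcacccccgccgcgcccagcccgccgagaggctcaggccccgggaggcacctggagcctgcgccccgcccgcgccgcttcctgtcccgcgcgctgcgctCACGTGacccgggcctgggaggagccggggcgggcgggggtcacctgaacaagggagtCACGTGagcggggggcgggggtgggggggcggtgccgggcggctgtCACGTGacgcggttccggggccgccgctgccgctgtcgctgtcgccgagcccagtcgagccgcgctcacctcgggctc
IGF2BP3: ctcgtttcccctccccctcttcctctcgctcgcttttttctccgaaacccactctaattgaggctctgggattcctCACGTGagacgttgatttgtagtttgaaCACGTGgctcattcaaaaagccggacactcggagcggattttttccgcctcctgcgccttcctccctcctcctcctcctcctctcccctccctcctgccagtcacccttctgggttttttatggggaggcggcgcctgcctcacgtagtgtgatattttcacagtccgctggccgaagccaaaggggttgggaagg
IGFBP4: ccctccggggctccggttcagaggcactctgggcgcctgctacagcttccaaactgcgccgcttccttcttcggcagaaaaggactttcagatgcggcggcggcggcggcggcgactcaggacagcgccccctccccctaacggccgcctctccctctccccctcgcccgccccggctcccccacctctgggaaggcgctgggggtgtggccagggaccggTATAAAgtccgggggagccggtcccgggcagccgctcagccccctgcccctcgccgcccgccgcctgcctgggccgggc
IGFBP6: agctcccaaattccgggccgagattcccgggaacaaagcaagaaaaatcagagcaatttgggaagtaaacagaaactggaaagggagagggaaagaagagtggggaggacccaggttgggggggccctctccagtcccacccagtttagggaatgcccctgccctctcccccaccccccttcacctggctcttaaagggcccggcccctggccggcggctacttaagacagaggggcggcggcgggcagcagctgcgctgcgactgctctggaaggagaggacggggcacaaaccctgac

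IGF2R held 3 E-boxes, whose first bases lay 132, 74 and 28 bases before the start, and IGF2BP3 held 2, at 174 and 146 bases before it. None of the other 6 genes with a window held one, and 7.26% of all 35116 windows of this length did. IGFBP4 held a TATA box 29 bases before the start, as 11.53% of all windows held one somewhere. The GC box GGGCGG, present in 44.95% of all windows, occurred 6 times in IGF2R and not at all in IGF2BP3. Each of the other 6 genes, the falling IGFBP4 and IGFBP6 among them, held it in a window as well. Further short words, the TCF core CTTTGA and the FOXO core TGTTTA, were searched as well. The TCF core occurred in none of the members' windows and the FOXO core once each in IGF1R and IGFBP6, against 12.92% and 12.32% of all windows. The words were chosen after the fold changes were known, and a match gives letters only, not binding.

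Little ligand mRNA was detected. IGF2, the fetal growth factor (GRCh37, chromosome 11, 2150342 to 2179621, minus strand), had 28, 15 and 30 counts in control and 36, 40 and 38 in knockdown. These are 2.22, 1.19 and 2.54 CPM in control and 2.51, 2.34 and 2.10 CPM in knockdown. The ranges overlap, and control replicate 2 is the low library, with an exact 95% Poisson interval of 0.668 to 1.97 CPM that covers counting error only. The log2 fold change of IGF2 was 0.25 ± 0.25 (SE; edgeR adjusted p 0.468), and its 95% interval, -0.27 to 0.78, leaves room for a moderate change in either direction. Without control replicate 2 it was -0.01.

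Among the other ligand genes IGFL4, an IGF-like gene, passed the filter, with 19 to 42 counts per library (1.47 to 2.46 CPM) and a log2 fold change of 0.06 (edgeR adjusted p 0.873). IGF1, the growth hormone-dependent IGF, had 0 to 4 counts per library. INS, the insulin gene beside IGF2, and the INS-IGF2 readthrough had no read in any library, for which the detection limit, set at 3 counts of the library total, was 0.166 to 0.254 CPM. The imprinted non-coding neighbour H19 had 0 to 3 counts and IGF2-AS, on the opposite strand of IGF2, 1 count in all 6 libraries together. The insulin-like and IGF-like genes IGFL1, IGFL2, INSL3 and INSL6 had 0 to 2 counts per library. The strand setting of the counting is not given in the sources used here, so reads of IGF2 and its antisense partner cannot be told apart.

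The receptors were the 3 longest transcripts of the group. IGF1R (chromosome 15, 99191768 to 99507759) was at 62.1, 59.5 and 56.3 CPM in control and 69.6, 58.1 and 53.8 CPM in knockdown. The knockdown values span those of control, with knockdown replicate 1 highest and replicate 3 lowest. IGF1R had a log2 fold change of 0.05 ± 0.07 (SE; edgeR adjusted p 0.622; 95% interval -0.10 to 0.20).

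INSR (chromosome 19, 7112266 to 7294425) was at 20.4, 21.4 and 21.6 CPM in control and 21.3, 25.0 and 23.3 CPM in knockdown. Knockdown replicates 2 and 3 are above all control libraries and replicate 1 lies within them. INSR had a log2 fold change of 0.17 ± 0.07 (SE), with an edgeR adjusted p of 0.0786. Without knockdown replicate 1 it was 0.23, with an adjusted p of 0.0266. INSRR, the third receptor of this kinase family, had 0 or 1 count in each library.

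IGF2R (chromosome 6, 160390114 to 160534539) was at 156, 167 and 175 CPM in control and 191, 188 and 172 CPM in knockdown. Knockdown replicates 1 and 2 lie above all controls, and knockdown replicate 3 lies below the highest control. The log2 fold change of IGF2R was 0.18 ± 0.04 (SE; edgeR adjusted p 0.00332), a 1.13-fold rise, and 0.13 without control replicate 1 (adjusted p 0.0315). Of the sorting proteins that share its route, the other mannose 6-phosphate receptor gene M6PR rose by a log2 fold change of 0.09 ± 0.03 (SE; edgeR adjusted p 0.0403), a call lost in 11 of 19 alternatives.

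Levels per kilobase of canonical transcript were used to set different genes side by side. Which transcripts the cells made was not examined, so these levels, and their ratios and sums, depend on the annotated length. In control IGF2R led the receptors with 11.8 ± 0.661 CPM per kb, followed by IGF1R with 4.85 ± 0.237 and INSR with 2.23 ± 0.0662 (SD, n = 3 each). The order was the same in knockdown, at 13.1 ± 0.729, 4.94 ± 0.666 and 2.45 ± 0.198 CPM per kb. No ranges of neighbouring receptors overlapped in either group. The ratio of IGF1R to INSR per kb was 2.17 ± 0.168 in control and 2.04 ± 0.426 in knockdown (SD, n = 3 each; exact permutation p 0.6, two-sided; the smallest p that 3 against 3 allows is 0.1). That of IGF2R to IGF1R was 2.44 ± 0.256 and 2.66 ± 0.233 (exact permutation p 0.3).

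IGFBP3, IGFBP4 and IGFBP6 fell by unequal amounts, and IGFBP2 did not fall. IGFBP6, which prefers IGF2 over IGF1 (chromosome 12, 53491220 to 53496129), was at 54.3, 56.0 and 49.9 CPM in control and 34.4, 36.4 and 36.2 CPM in knockdown. All knockdown libraries lie well below all controls. The log2 fold change of IGFBP6 was -0.55 ± 0.06 (SE; edgeR adjusted p 2.55e-07), a 1.46-fold fall, which 1071 of the tested genes exceeded.

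IGFBP4, a carrier that the protease PAPPA cleaves (chromosome 17, 38599702 to 38613977), was the most abundant of these transcripts. It was at 308, 299 and 295 CPM in control and 259, 252 and 266 CPM in knockdown, with no overlap. IGFBP4 fell, with a log2 fold change of -0.18 ± 0.03 (SE; edgeR adjusted p 0.000197), a 1.14-fold fall.

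IGFBP3, the main IGF carrier of serum (chromosome 7, 45951844 to 45961473), was at 118, 112 and 115 CPM in control and 103, 96.9 and 106 CPM in knockdown. The groups do not overlap, but the gap between them is narrow. IGFBP3 fell, with a log2 fold change of -0.14 ± 0.04 (SE; edgeR adjusted p 0.0108), and the call was lost without knockdown replicate 2 (-0.11, adjusted p 0.0877) and in DESeq2's Wald test (adjusted p 0.0592).

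IGFBP2 (chromosome 2, 217497551 to 217529159) was at 129, 118 and 111 CPM in control and 123, 125 and 124 CPM in knockdown. The knockdown libraries lie close together inside the wider control range. The log2 fold change of IGFBP2 was 0.08 ± 0.05 (SE; edgeR adjusted p 0.158; 95% interval -0.01 to 0.18). It passed without control replicate 1, the library highest in IGFBP2 and in collagen transcripts (0.14, adjusted p 0.0198).

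The remaining binding protein genes were lower or barely detected. IGFBP5, which binds extracellular matrix, fell from 33, 47 and 35 counts in control to 12, 22 and 13 in the deeper knockdown libraries (log2 fold change -1.67 ± 0.27 SE; edgeR adjusted p 5.87e-05). IGFBP7, a secreted relative with low affinity for IGFs, fell from 23.5, 22.4 and 19.3 CPM to 12.8, 12.4 and 11.7 CPM (-0.80 ± 0.09 SE; edgeR adjusted p 6.62e-07). IGFBPL1, an IGFBP-like gene with 6 to 15 counts per library, fell too (-1.02 ± 0.35 SE; edgeR adjusted p 0.0268), a call lost in 6 of 17 alternatives. IGFBP1 had 0 to 3 counts, and IGFALS, which encodes the third part of the serum IGF complex, 1 to 5.

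Stromal cells make several of these carriers, and the stromal marker sum was also lower in knockdown (8.50 to 11.0 against 12.2 to 31.8 CPM). Of the 4 stromal markers tested, the collagen genes COL1A1 and COL3A1 were lower (log2 fold changes -1.15 and -1.71, edgeR adjusted p 0.00290 and 0.0136). ACTA2 and PDGFRB showed no change past the threshold (-0.11 and -0.18, edgeR adjusted p 0.724 and 0.609). The remaining stromal markers were below the filter. Without control replicate 1 the log2 fold changes were -0.54 for IGFBP6, -0.17 for IGFBP4, -0.13 for IGFBP3, -0.74 for IGFBP7 and -1.79 for IGFBP5, all past the threshold in edgeR. The 2 control libraries left in that fit still had higher stromal sums than the knockdown libraries, and the part of these transcripts in the changes was not tested.

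**Figure D2:**
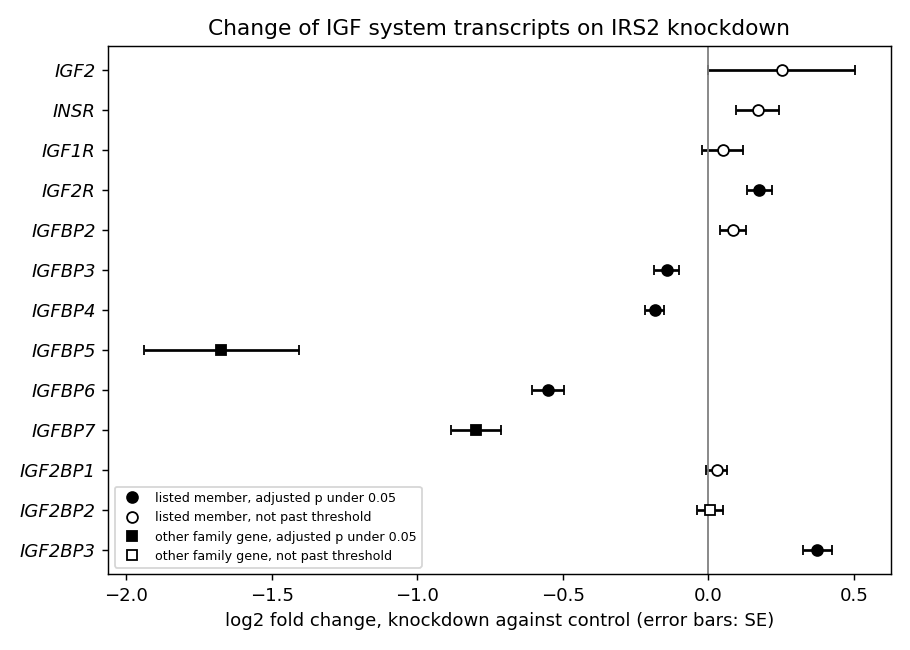
Log2 fold change of knockdown against control (x axis) with its SE, for the 10 genes (circles) and 3 further family genes (squares). Filled symbols have an adjusted p under 0.05; 5 binding protein genes lie left of 0, with IGFBP5 at -1.67, while IGF2R and IGF2BP3 lie right of it.

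Set per kilobase, IGFBP4 stood first among the carriers in control with 136 ± 3.21 CPM per kb, followed by IGFBP2 with 84.3 ± 6.34, IGFBP6 with 56.4 ± 3.29 and IGFBP3 with 44.0 ± 1.14 (SD, n = 3 each). In knockdown IGFBP6, at 37.7 ± 1.17 CPM per kb, came level with IGFBP3, at 39.0 ± 1.75 (SD, n = 3 each), and their ranges overlapped. The summed level of IGFBP2 to IGFBP7 went from 337 ± 13.6 to 290 ± 4.27 CPM per kb (SD, n = 3 each; exact permutation p 0.1, the smallest possible here). IGFBP4 held 40.5% ± 0.767 of that sum in control and 40.4% ± 0.515 in knockdown, IGFBP2 went from 25.0% ± 0.878 to 30.1% ± 0.533, and IGFBP6 from 16.7% ± 0.667 to 13.0% ± 0.419 (SD, n = 3 each).

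**Figure D3:**
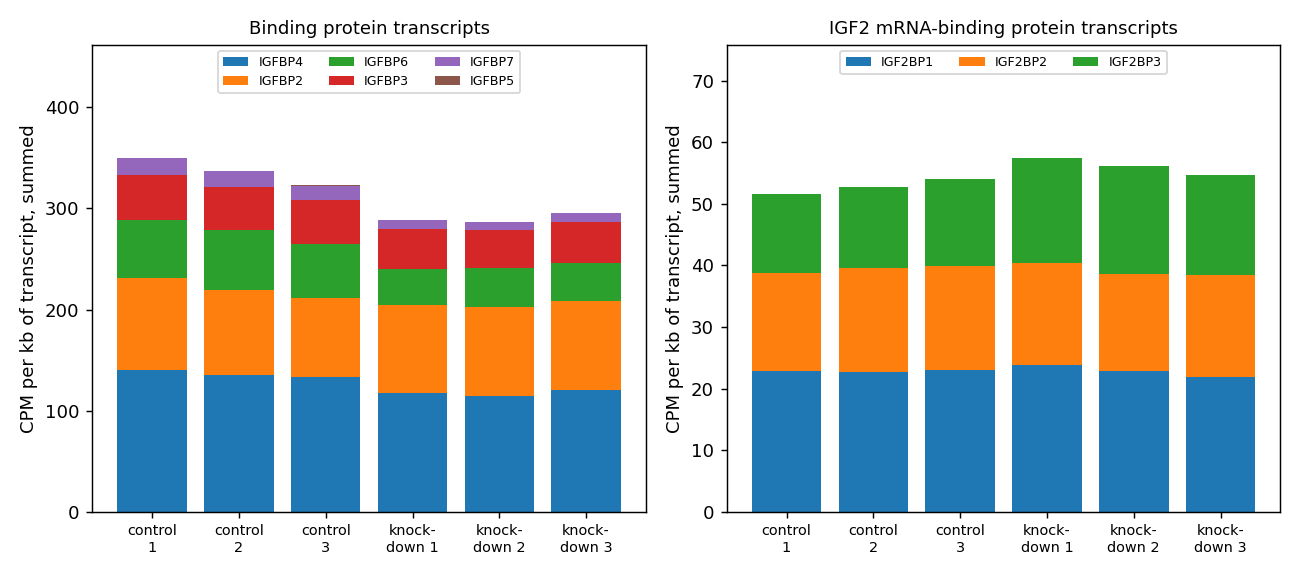
Summed transcript level per library in CPM per kb, stacked by gene, for IGFBP2 to IGFBP7 (left) and IGF2BP1 to IGF2BP3 (right). The binding protein stacks are lower in all 3 knockdown libraries, with a smaller IGFBP6 part, and the IGF2BP3 part is larger in all 3 knockdown libraries; IGFBP5 is too small to see.

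Proteases that free IGFs from their carriers were mostly below the filter: of 18 genes of proteases and their inhibitors, 6 were tested and 3 passed, against 38.5% of all tested genes. PAPPA had 1 to 12 counts, with the 12 in control replicate 1, and PAPPA2 0 or 1. STC2, a secreted inhibitor of PAPPA, fell from 97.7 ± 3.99 to 68.8 ± 3.45 CPM (SD, n = 3), or by 0.47 on the log2 scale (edgeR adjusted p 1.86e-07). The membrane proteases ADAM17 and ADAM9 rose, with log2 fold changes of 0.31 and 0.15 (edgeR adjusted p 5.90e-05 and 0.00224). The median over the 6 was 0.09.

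The RNA-binding proteins split, in that IGF2BP3 rose while IGF2BP1 and IGF2BP2 showed no change past the threshold. IGF2BP3 (chromosome 7, 23349828 to 23510110) was at 54.7, 56.1 and 60.3 CPM in control and 73.2, 74.9 and 69.3 CPM in knockdown. Every knockdown library lies above every control. IGF2BP3 rose, with a log2 fold change of 0.37 ± 0.05 (SE; edgeR adjusted p 5.48e-06), a 1.30-fold rise that 928 of the tested genes exceeded. Without control replicate 1 it was 0.34 (adjusted p 9.89e-05).

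IGF2BP1 (chromosome 17, 47074747 to 47133507), the most abundant of the 3 family members, was at 201, 200 and 202 CPM in control and 209, 201 and 192 CPM in knockdown. The control libraries lie close together and inside the knockdown range. IGF2BP1 had a log2 fold change of 0.03 ± 0.03 (SE; edgeR adjusted p 0.562; 95% interval -0.04 to 0.10), and with library size alone as scaling it was -0.002. IGF2BP2 was at 70.9 ± 2.12 and 69.7 ± 1.97 CPM (SD, n = 3), a log2 difference of 0.01 (edgeR adjusted p 0.943).

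The ratio of IGF2BP1 to IGF2BP3 per kb was 1.78, 1.73 and 1.63 in control and 1.39, 1.31 and 1.35 in knockdown, without overlap (exact permutation p 0.1, the smallest possible). IGF2BP3 made up 25.3% ± 0.739 of the summed per-kb level of the 3 genes in control and 30.2% ± 0.834 in knockdown (SD, n = 3 each).

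Of 20 tested genes listed as LIN28 genes, HMGA2 or reported IGF2BP partners and clients, 8 rose and 3 fell in edgeR. Their median was 0.05, and 38.5% of all tested genes passed. LIN28B, an RNA-binding protein that blocks maturation of let-7 microRNAs, fell from 14.5 ± 0.572 to 5.08 ± 0.438 CPM (SD, n = 3), with a fitted change of -1.49 ± 0.11 (log2, SE; edgeR adjusted p 3.61e-09). HMGA2, a chromatin protein of fetal cells whose mRNA is a let-7 target, as are the IGF2BP mRNAs, rose with a log2 fold change of 0.23 ± 0.06 (SE; edgeR adjusted p 0.00264). Without control replicate 1, its lowest library, HMGA2 was at 0.15 (edgeR adjusted p 0.0213). Levels of let-7 were not examined, and a link between LIN28B and the HMGA2 or IGF2BP transcripts was not tested. The MYC mRNA, which IGF2BP1 is known to stabilise, rose from 310 ± 4.16 to 365 ± 8.57 CPM (SD, n = 3), a fitted change of 0.27 in log2 (edgeR adjusted p 1.84e-06). ABCB1, the drug efflux pump, rose as well, with a log2 fold change of 0.53, and METTL14, a subunit of the m6A methyltransferase, fell (-0.41).

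Around the receptors, 10 of 39 tested signalling genes rose and 6 fell, with a median log2 fold change of 0.02. The targeted gene IRS2 is itself among those counted as lower. The count is close to the 38.5% called among all tested genes. The adaptor IRS4 fell by 1.54 on the log2 scale, with IRS2 at -1.39. SHC1, the adaptor that leads from the receptors to the MAP kinase pathway, rose by 0.26, and the phosphoinositide 3-kinase catalytic subunits PIK3CD and PIK3CB rose by 0.79 and 0.24. The phosphatase gene PTPN11 had a log2 fold change of -0.18. All 6 had an edgeR adjusted p of at most 0.000429, the value for PIK3CB. Of 10 convertases and sorting receptors, 3 rose (M6PR among them) and 1 fell, with a median of 0.05, again close to the 38.5% of all tested genes. SORL1 and SORT1, sorting receptors related to one another, had log2 fold changes of 0.49 and 0.19 and the convertase PCSK6 -0.23 (largest edgeR adjusted p 0.00646, that of PCSK6).

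The list of 21 other family genes held ligands, receptors and carriers, and also IGF2BP2 and the non-coding H19 and IGF2-AS. Of these 21 genes, 16 had a read and 6 were tested, and the 3 that passed (IGFBP5, IGFBP7 and IGFBPL1) were all lower. Among all tested genes 38.5% passed in either direction and 19.2% passed as lower, so with only 6 genes the count allows no reading of the family. The median log2 fold change of the 6 was -0.49, with few counts for IGFBP5 and IGFBPL1. The others, IGF2BP2, IGFLR1 and IGFL4, were at 0.01, -0.17 and 0.06.

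Fold changes in these libraries moved with transcript length. Among well-covered genes (200 or more counts on average), the median log2 fold change went from -0.04 in the shortest of 5 length bins to 0.07 in the longest. From the shortest bin to the longest, the share called higher went from 11.5% to 35.1% and the share called lower from 25.7% to 11.4%. The 5 members of at least 5 kb, namely INSR, IGF1R, IGF2R, IGF2 and IGF2BP1, all had fold changes above 0 (median 0.17), while 2 of the 5 shorter members did (median -0.14). With length and GC content removed as offsets, the log2 fold change was 0.11 for IGF2R (edgeR adjusted p 0.00336), 0.10 for INSR (0.293), -0.02 for IGF1R (0.801) and -0.04 for IGF2BP1 (0.275). IGF2BP3 was then at 0.36, IGFBP6 at -0.47, IGFBP4 at -0.17 and IGFBP3 at -0.14, all past the threshold in edgeR, and IGFBP2 passed as higher (0.14, adjusted p 0.00226).

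**Figure D4:**
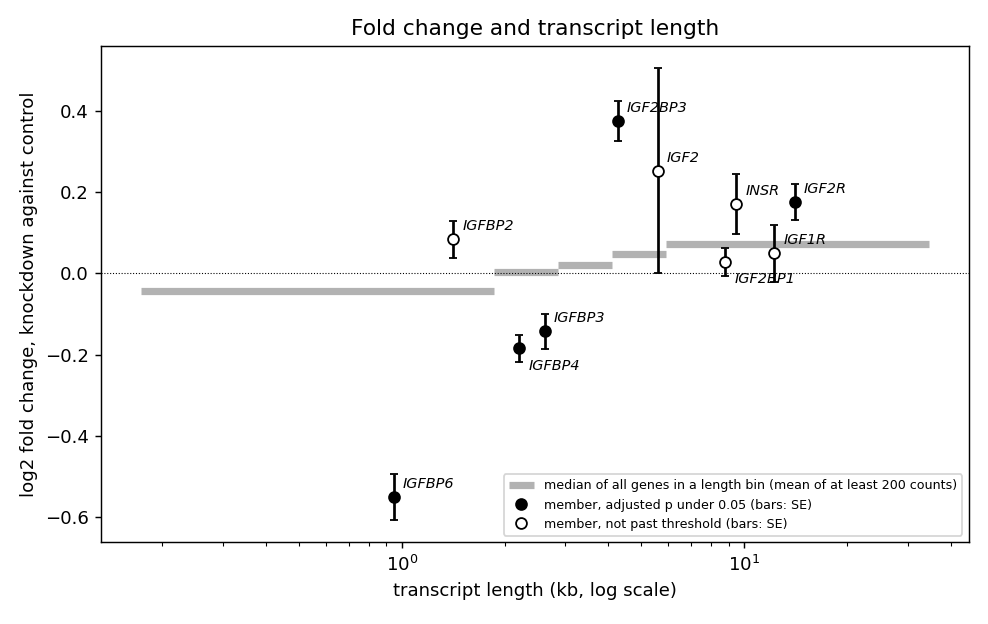
Log2 fold change (y axis, bars are SE) against canonical transcript length in kb (log axis) for the 10 genes. Grey lines are the medians, in 5 length bins, of all genes averaging 200 or more counts, from -0.04 to 0.07; IGFBP6 lies below and IGF2BP3 above the lines of their lengths.

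By centred log2 CPM over the 6 libraries, the 4 profiles nearest to IGF2BP3 among 10449 genes averaging 100 or more counts were RCOR1, SMAD3, ASAP1 and FNDC3A, at Euclidean distances of 0.046 to 0.056. Those nearest to IGFBP6 were ATP6V1E1, CITED2, KIF26A and GSE1, at 0.051 to 0.092. The log2 fold changes of these genes ran from 0.36 to 0.39 for the first 4 and from -0.57 to -0.55 for the others. This closeness follows from the way the genes were picked, since the distance was taken over the same control and knockdown libraries.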

How the data were processed

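The authors deposited whole-number read counts per gene symbol for 6 libraries, and a second table of normalized signal, in which every count of a library is divided by that library's constant (0.847 to 1.25), for 16213 genes with at least 10 counts in all. Per the submitters' processing notes, STAR 2.6.1a, Salmon, DESeq2 and build hg19 were used, with no role given; strand setting and annotation are not given in the sources used here. Locations, lengths and GC content come from GENCODE version 44 lifted to GRCh37. All per-sample columns were used.

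Counts were tested across all genes with edgeR 4.0.16 (R 4.3.3): TMM factors, filterByExpr, quasi-likelihood F-test, group as the only term, Benjamini-Hochberg adjustment over 13832 genes, threshold 0.05. SE was taken from the size of the log2 fold change and its F value (the first over the root of the second). CPM uses library totals, while fold changes use TMM. The script was tested on simulated data. Replicate pairs differed by more than counting error (chi-square over its degrees of freedom 1.39 to 2.84).

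The members and lists were chosen with earlier results of these data known. Named genes were the members, IRS2, the family genes with a read, up to 6 called genes per list by p, and the nearest profiles; INS, INS-IGF2, PAPPA, PAPPA2 and the marker genes were named after their values were seen. 1 gene that the rule names is not reported here. Alternatives were other scalings and filters, DESeq2 1.42.0, limma 3.58.1 (voom, and log2 of the deposited normalized values plus 1), thinning to the smallest library, a replicate block, length and GC offsets from splines fitted on genes averaging 200 or more counts, a threshold of 0.01, and leaving out each library.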

Additional observations from a re-analysis of the deposited data

How the results depend on the processing

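Of 189 values of the 10 genes over 19 alternatives, 175 held both sign and call; IGF2R, IGF2BP3, IGFBP4 and IGFBP6 did so in all 19. The exceptions were IGFBP3, IGFBP2, INSR, IGF1R, IGF2BP1 and IGF2. IGF2BP1 changed sign with library size alone (-0.00215), with length and GC offsets (-0.0392) and with those offsets and the replicate block (-0.0385). IGF1R did so with the offsets (-0.0220) and with the offsets and block (-0.0184), and ranged from -0.0513 to 0.125 when 1 replicate was left out. IGF2 ranged from -0.00595 to 0.463 in those fits. The cause of these changes was not tested, and none of these values passed the threshold. IGFBP3 missed a threshold of 0.01 (adjusted p 0.0108). The number of members past the threshold was 4 to 6 over all alternatives.

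Same-numbered libraries did not deviate together (correlations 0.045, -0.011 and -0.098), so the numbers were not treated as pairs. With the replicate block the same number of members passed (5), IGFBP3 having an adjusted p of 0.0172 and IGF2R 0.0106. M6PR lost its call (0.0843). With the Wald test of DESeq2, 2 convertase and sorting genes passed against 4, and with a mean of at least 50 counts 1 further family gene passed against 3, since IGFBP5 and IGFBPL1 were then not tested. With few counts, IGF2 and IGF1 allow no firm statement on change.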
